A study of Oryza sativa with 6 samples.

Results

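The members are 10 rice loci that encode subunits of Polycomb repressive complex 2 or enzymes of DNA methylation. As named in the list that defined them, the Polycomb subunits are FIE1 (Os08g0137100), iEZ1 (Os03g0307800), CLF (Os06g0275500), EMF2a (Os04g0162100) and EMF2b (Os09g0306800). The methylation genes are MET1a (Os03g0798300), MET1b (Os07g0182900), DRM2 (Os03g0110800), CMT3a (Os10g0104900) and DDM1a (Os09g0442700). They were chosen by locus ID from 30218 loci and other probe IDs, and each probe whose name begins with one of the IDs was taken, which gave 14 of the 42418 probes measured. By their IDs, 3 of the 10 lie on chromosome 3 (iEZ1, MET1a and DRM2) and 2 on chromosome 9 (EMF2b and DDM1a), and the others lie on chromosomes 4, 6, 7, 8 and 10. EMF2a had 4 probes, iEZ1 had 2 and each other locus had 1. Transcript levels came from nucellar projection cells of rice seeds (Oryza sativa) of genetic background ZH11, taken 3 days after flowering. This strip of maternal nucellus borders the vascular bundle of the young seed. Laser capture cut the cells out of fixed sections, and after 2 rounds of amplification the RNA was hybridised to 1-colour arrays. The groups were the wild type and lines 2 and 14 of A-OsMADS29, with 2 arrays each. Both lines are labelled as OsMADS29 mutants, with the prefix not explained, and the number of plants behind a sample is not stated, so p-values measure the spread between these samples.

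Polycomb repressive complex 2 places methyl groups on lysine 27 of histone H3 and keeps the marked genes silent. Its catalytic subunits are the E(z)-type methyltransferases, here iEZ1 and CLF, and its other core subunits include the WD40 protein FIE1 and the zinc-finger proteins EMF2a and EMF2b. In rice, the genes called FIE1 and EMF2a are known as imprinted genes of the endosperm, where the maternal copy is the active one. Whether the locus listed here as FIE1 is that gene was not tested. DNA methylation in plants is copied at CG sites by MET1 enzymes, kept at CHG sites by CMT3 enzymes and set anew by DRM2 under the guidance of small RNAs, and DDM1 remodels nucleosomes so that these enzymes reach the DNA. MET1b is known as the main CG maintenance enzyme of rice.

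No member was called different between the groups. Levels are given as log2 of the spot signal minus the array's 75th percentile, so 0 is the 75th percentile and a step of 1 is a 2-fold change. A call is a Benjamini-Hochberg adjusted p under 0.05 over 22250 loci and other probes in limma. With both lines set against wild type 0 of 10 members were called, where 0.144% of all loci were, and 1 of 10 had an unadjusted p under 0.05, where 7.89% of all loci did. MET1a, the minor CG methyltransferase, was the member with the unadjusted p under 0.05. It stood higher on all 4 line arrays than on both wild-type arrays, as 7.66% of all loci did. EMF2b stood lower on all 4 line arrays than on both wild-type arrays, as 8.84% of all loci did. FIE1 had nearly the same mean level in the 3 groups.

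All 10 members were well above background on all 6 arrays by at least 1 probe, and 13 of the 14 probes passed the filter on dim probes. Across loci, which are not independent replicates, r was 0.916 for the pair of wild-type arrays, 0.945 for line 2 and 0.958 for line 14. The wild-type and line 2 arrays lay on 1 slide and the line 14 arrays on another, so line 14 and its slide cannot be told apart. OsMADS29 itself (Os02g0170300) was read here only by the brightest kept of its 2 probes. It stood at 0.38 and 0.88 in wild type, -0.27 and 0.90 in line 2 and 0.17 and -0.0031 in line 14. Line 2 overlapped wild type at this probe. Both line 14 arrays lay below both wild-type arrays, as for 18.1% of all loci. The difference was -0.32 for line 2 (limma adjusted p = 0.982) and -0.55 for line 14 (limma adjusted p = 0.894), and neither was called. Gene lists for cell types were set from general knowledge, since the files pair no locus with a function. All 5 loci listed for maternal nucellus, OsMADS29 among them, and both for green pericarp were well above background on each array, as were 9 to 11 of 14 for endosperm and 1 to 2 of 4 for embryo. The summed linear level of the maternal nucellus list, in multiples of the 75th percentile signal, was 98.6 and 71.4 in wild type, 88.4 and 83.6 in line 2 and 117.2 and 114.0 in line 14. Such a sum is weighted to the brightest loci. Differences of its single loci between line 14 and wild type ran from -0.55 to 1.76, with 3 above 0 and 2 below. The sum of the green pericarp list was 29.3 to 39.8 in wild type and 37.1 to 64.2 in the lines, and that of the embryo list was at most 0.073 on any array. In captured tissue, fewer cells of a type and less RNA per cell cannot be told apart.

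FIE1, listed as a WD40 subunit, passed background on each of the 6 arrays, and its group means lay within 0.015 of each other. The name comes from the list that defined the members. Whether the imprinted endosperm gene is this locus or its closest paralog was not tested. The locus listed as its closest paralog had no probe, and whether the FIE1 probe also reads that paralog was not tested. FIE1 levels were 0.78 and 1.22 in wild type, 0.87 and 1.12 in line 2 and 0.87 and 1.14 in line 14, and the groups overlapped. The group means were 1.00 ± 0.31 (SD, n = 2), 0.99 ± 0.17 (SD, n = 2) and 1.01 ± 0.19 (SD, n = 2). For both lines together the fitted difference was -0.0010 (SE 0.28, 95% confidence interval -0.69 to 0.69, limma adjusted p = 1.00). Its interval reaches a level 1.62-fold higher or 1.62-fold lower, so larger differences lay outside it. It was among the narrower intervals, since for 3 of the 10 members, FIE1, CLF and DRM2, the interval lay within a 2-fold change either way, as it did for 31.1% of all loci. The summed linear level of the endosperm list was 19.0 and 25.6 times the 75th percentile signal in wild type, 30.8 and 16.9 in line 2 and 21.7 and 21.1 in line 14. These ranges overlapped, but single loci of the list lay far apart in both directions. Of its 10 tested loci 0 were called, and 3 had an unadjusted p under 0.05 for both lines against wild type, where 7.89% of all loci did. Os06g0133000, read here only by the brightest kept of its 8 probes, differed by -4.02 (limma adjusted p = 0.630). It stood at -1.34 to -1.09 on both wild-type arrays and line 2 replicate 1 and at -6.99 to -6.40 on the other 3 arrays. Os02g0252400 differed by 2.32 (limma adjusted p = 0.202) and Os07g0182000 by 1.66 (limma adjusted p = 0.177). Both stood higher on all 4 line arrays than in wild type, as 7.66% of all loci did. The part of the endosperm list in the FIE1 level was not tested.

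**Figure D1:**
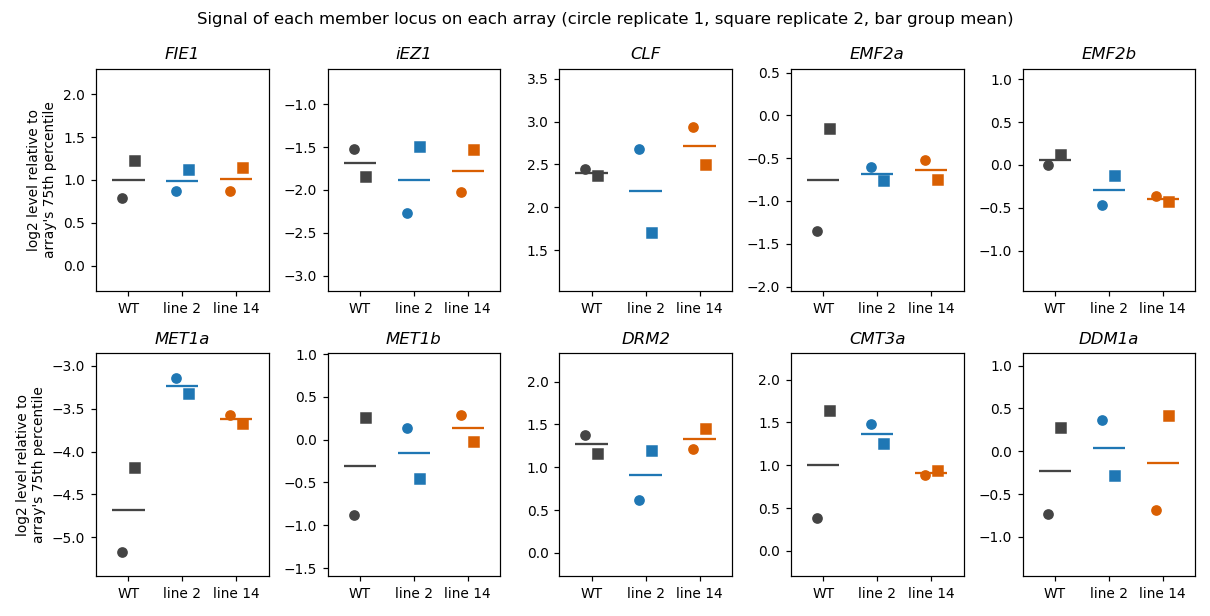
Each panel shows 1 locus by its brightest kept probe, with the log2 level relative to the array's 75th percentile on the vertical axis and the 3 groups on the horizontal axis. Circles are replicate 1, squares replicate 2 and bars the group means, and every panel spans the same range of 2.6. The wild-type arrays lie apart in EMF2a, MET1b, CMT3a and DDM1a. In MET1a all 4 line arrays lie above both wild-type arrays, as they do for 7.66% of all loci.

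For the catalytic subunits iEZ1 and CLF the widest distance between replicates of a group passed every difference between group means. The brighter iEZ1 probe gave -1.52 and -1.85 in wild type, -2.27 and -1.49 in line 2 and -2.02 and -1.53 in line 14. Its difference was -0.14 (SE 0.35, 95% confidence interval -1.02 to 0.73, limma adjusted p = 0.962). On the dimmer iEZ1 probe the difference was -0.073 (limma adjusted p = 0.984). On both probes the lowest of the 6 arrays was line 2 replicate 1.

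CLF stood at 2.44 and 2.37 in wild type, 2.68 and 1.70 in line 2 and 2.94 and 2.50 in line 14. The wild-type arrays were close together, the line 2 arrays were 0.98 apart, and both line 14 arrays lay above wild type. The difference in line 14 was 0.31 (SE 0.42, 95% confidence interval -0.76 to 1.38, limma adjusted p = 0.925), and in line 2 it was -0.21 (limma adjusted p = 0.989). Set directly against line 2, line 14 was 0.53 higher (95% confidence interval -0.54 to 1.59, limma adjusted p = 1.00), and the arrays of the lines overlapped.

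The zinc-finger subunits EMF2a and EMF2b differed in how far their arrays lay apart. EMF2b stood at 0.0033 and 0.12 in wild type, -0.47 and -0.13 in line 2 and -0.37 and -0.43 in line 14. All 4 line arrays were thus below both wild-type arrays, a pattern that 8.84% of all loci also showed. The difference was -0.41 (SE 0.25, 95% confidence interval -1.04 to 0.22, limma adjusted p = 0.796), a fitted level 1.33-fold lower. An exact two-sided permutation test gave p = 0.0667, the smallest that 15 splits of 6 arrays allow, which adds little to the separation of the arrays. Line 2 alone differed by -0.36 (limma adjusted p = 0.955). Line 14 alone differed by -0.46 from the same wild-type arrays (limma adjusted p = 0.852).

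EMF2a was read by 4 probes, and the wild-type arrays disagreed on each of them. The brightest probe gave -1.35 and -0.16 in wild type, -0.61 and -0.76 in line 2 and -0.52 and -0.75 in line 14. The line arrays thus lay between the wild-type arrays, and the difference was 0.094 (SE 0.40, 95% confidence interval -0.91 to 1.10, limma adjusted p = 0.979). A second probe gave 0.37 (limma adjusted p = 0.913), with -3.16 and -1.74 in wild type and -2.37 to -1.90 in the lines.

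The other EMF2a probes were dim. The probe in the coding sequence was well above background on wild-type replicate 2 and both line 2 arrays, at -7.10, -5.49 and -7.22, and on neither line 14 array. It passed the filter only through line 2, the group where its mean was highest, so its fit cannot decide whether the level changed. The fitted difference between both lines and wild type was 1.51 (limma adjusted p = 0.777), with wild-type replicate 1 at -9.50 below background. The line 14 arrays, which give only a bound, stood at -7.42 and -7.03, so whether they overlapped those of line 2 cannot be told. The remaining probe, in the coding sequence and 3' UTR, was well above background on 1 array of each group and did not pass the filter. On all 4 probes wild-type replicate 1 was the lowest array.

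**Figure D2:**
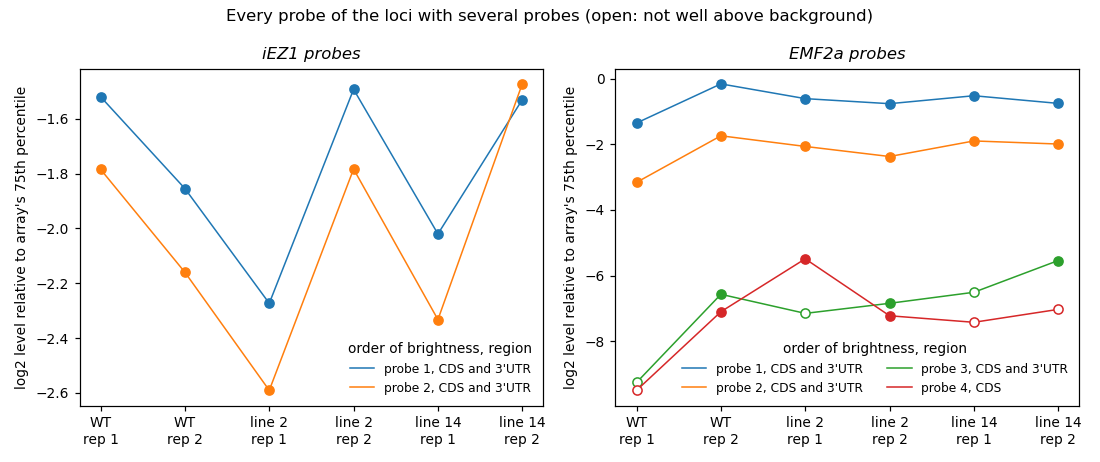
The log2 level relative to the array's 75th percentile is shown for each probe of iEZ1 (left) and EMF2a (right) on the 6 arrays, and lines join the arrays of 1 probe. Open circles mark arrays where the probe was not well above background. Wild-type replicate 1 is the lowest array on all 4 EMF2a probes, and line 2 replicate 1 is the lowest on both iEZ1 probes.

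Among the DNA methylation genes MET1a had the widest distance between lines and wild type. Its spot signal was 187 and 506 in wild type, 863 and 914 in line 2 and 717 and 696 in line 14, dim but well above background on all 6 arrays. On the log2 scale these were levels of -5.17 and -4.19, -3.14 and -3.33, and -3.58 and -3.67. The groups did not overlap, with wild type lowest and line 2 highest, and 7.66% of all loci likewise had all 4 line arrays above both wild-type arrays.

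The mean MET1a level was -4.68 ± 0.69 (SD, n = 2) for wild type. For line 2 it was -3.23 ± 0.13 and for line 14 -3.62 ± 0.069 (both SD, n = 2). For both lines together the fitted difference was 1.25 (SE 0.35, 95% confidence interval 0.37 to 2.13), a fitted level 2.38-fold higher, with an unadjusted p of 0.0143 and a limma adjusted p of 0.423. In size it passed 90.5% of all loci. An exact two-sided permutation test gave p = 0.0667, again the smallest that the splits allow, which adds little to the separation of the arrays. Line 2 alone differed by 1.45 (limma adjusted p = 0.521). Line 14 alone differed by 1.06 from the same wild-type arrays (limma adjusted p = 0.687).

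The size for MET1a depended on which wild-type array stood for the control. Without wild-type replicate 1 the difference of both lines was 0.76 (limma adjusted p = 0.668), and without wild-type replicate 2 it was 1.74 (limma adjusted p = 0.0884). The line arrays, in contrast, lay within 0.53 of each other. Line 14 was 0.39 below line 2 (95% confidence interval -1.41 to 0.63, limma adjusted p = 1.00).

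MET1b, the main CG methyltransferase, overlapped between all groups. Its levels were -0.87 and 0.25 in wild type, 0.14 and -0.46 in line 2 and 0.29 and -0.025 in line 14. The difference was 0.30 (SE 0.42, 95% confidence interval -0.75 to 1.35, limma adjusted p = 0.919). Wild-type replicate 1 was the lowest array, as it was for MET1a, and the other 5 arrays lay between -0.46 and 0.29.

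CMT3a, which keeps CHG methylation, and DRM2, the de novo enzyme, also overlapped between lines and wild type. CMT3a stood at 0.38 and 1.63 in wild type, 1.48 and 1.24 in line 2 and 0.88 and 0.93 in line 14. The wild-type arrays enclosed all 4 line arrays, and the difference was 0.13 (SE 0.41, 95% confidence interval -0.90 to 1.16, limma adjusted p = 0.972). Both arrays of line 14 lay below those of line 2, by 0.45 on average (95% confidence interval -1.64 to 0.74, limma adjusted p = 1.00).

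DRM2 stood at 1.38 and 1.16 in wild type, 0.62 and 1.19 in line 2 and 1.22 and 1.44 in line 14. Only line 2 replicate 1 stood apart, below the other 5 arrays. The difference was -0.15 (SE 0.29, 95% confidence interval -0.88 to 0.58, limma adjusted p = 0.946). Set against line 2, line 14 was 0.43 higher with no overlap of the arrays (limma adjusted p = 1.00).

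DDM1a, the chromatin remodeler, had the widest interval of the 10. Its levels were -0.73 and 0.27 in wild type, 0.37 and -0.28 in line 2 and -0.69 and 0.42 in line 14, so 1 array of each group was below 0 and 1 above. The difference was 0.18 (SE 0.49, 95% confidence interval -1.05 to 1.41, limma adjusted p = 0.966). DDM1a was the only member whose line 14 arrays were more than 1 apart, at 1.11.

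**Figure D3:**
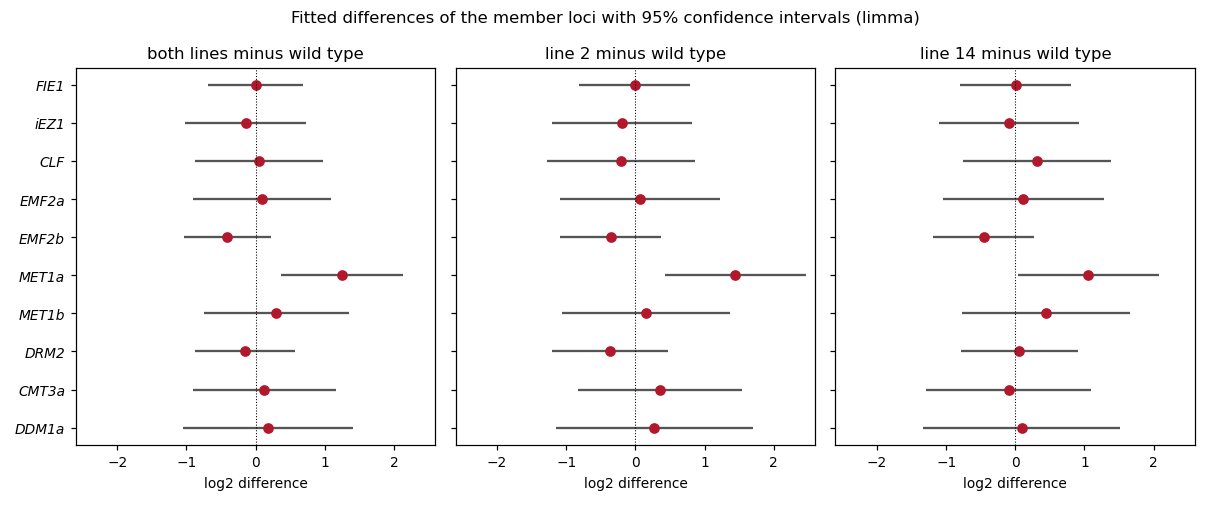
Points are fitted log2 differences of the 10 loci and bars their 95% confidence intervals, for both lines, line 2 and line 14 against wild type. The 3 panels share the wild-type arrays. The interval of MET1a lies above 0 in each panel, and the intervals of the other 9 include 0.

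As a group the members had a smaller median absolute difference between both lines and wild type than all loci. Their median difference between both lines and wild type was 0.072, against 0.0034 over all loci, and their median absolute difference was 0.15 against 0.30. The latter was 0.24 against 0.32 in line 2, 0.11 against 0.34 in line 14 and 0.23 against 0.27 between the lines. All 10 members were well above background on all 6 arrays, which the filter did not require of the loci compared. The part of signal level in this contrast was not tested. Of the 10, 2 had lines and wild type that did not overlap, MET1a and EMF2b, where 16.5% of all loci did so. Taken singly, line 2 gave 0 calls among the members against 0.0225% of all loci, and line 14 gave 0 against 0.0404%. In each line 1 member, MET1a, had an unadjusted p under 0.05, against 6.41% and 7.13% of all loci. The direct comparison of line 14 with line 2 gave 0 calls among the members and 0% over all loci in limma, with 0 of 10 members and 3.46% of all loci at an unadjusted p under 0.05. The arrays did not overlap for 2 of 10 members between line 2 and wild type, 3 of 10 between line 14 and wild type and 3 of 10 between the lines. They were MET1a and EMF2b in line 2, the same with CLF in line 14, and MET1a, DRM2 and CMT3a between the lines. Over all loci those shares were 32.6%, 35.1% and 31.5%.

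Wild-type replicate 1 was the lowest of the 6 arrays for 6 of the 10 members, namely FIE1, EMF2a, MET1a, MET1b, CMT3a and DDM1a. It was the lowest for 24.7% of all loci. It was the highest array for 0 of the 10 members, against 23.6% of all loci. The distance between the wild-type arrays passed 1 for 4 of 10 members, EMF2a, MET1b, CMT3a and DDM1a, against 26.1% of all loci. That distance passed 1 for 0 of 10 in line 2 and 1 of 10 in line 14, against 15.9% and 16.2%. On wild-type replicate 1 the median 5' minus 3' signal over 391 loci, centred over arrays, was -0.33, against -0.19 to 0.31 on the others, and its part in these values was not tested. The cell division list, with 5 of 5 loci well above background on every array, had summed linear levels of 6.41 and 8.13 in wild type, 8.74 and 7.73 in line 2 and 5.15 and 5.81 in line 14.

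Other loci of related machinery, listed from general knowledge and given by ID, were likewise not called. Of 8 loci listed as Polycomb partners, 6 had probes and were tested, 0 were called in either direction, and their differences between both lines and wild type ran from -0.28 to 0.20. One of these, Os03g0640100, stood between 1.71 and 2.09 on all 6 arrays. Of 6 loci listed for methylation guided by small RNA all were tested and 0 were called, with differences from -0.33 to 0.47.

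The list of other DNA methylation loci also gave 0 calls. It was not limited to enzymes that add DNA methylation, so a shared sign is not a shared function. Of its 9 loci 6 were tested. For both lines against wild type all 6 had differences below 0, where 50.3% of all loci were above 0. Their median was -0.27 against 0.0034 over all loci. In line 2 alone 2 of the 6 were above 0 and 4 below, with a median of -0.13, where 50.7% of all loci were above 0. In line 14, which cannot be told apart from its slide, 0 were above and 6 below, with a median of -0.52. The share of all loci above 0 in line 14 was 50.9%. The lowest was Os03g0722400, which stood at -0.68 and -0.93 in wild type, -1.34 and -2.47 in line 2 and -2.19 and -1.54 in line 14. All 4 line arrays of this locus were below both wild-type arrays, as for 8.84% of all loci. Its difference was -1.08 (SE 0.42, limma unadjusted p = 0.0468, limma adjusted p = 0.626). The other 3 loci did not pass the filter. One of these, Os03g0226800, stood at -2.71 on wild-type replicate 1 and between -9.94 and -6.85 on the other arrays.

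**Figure D4:**
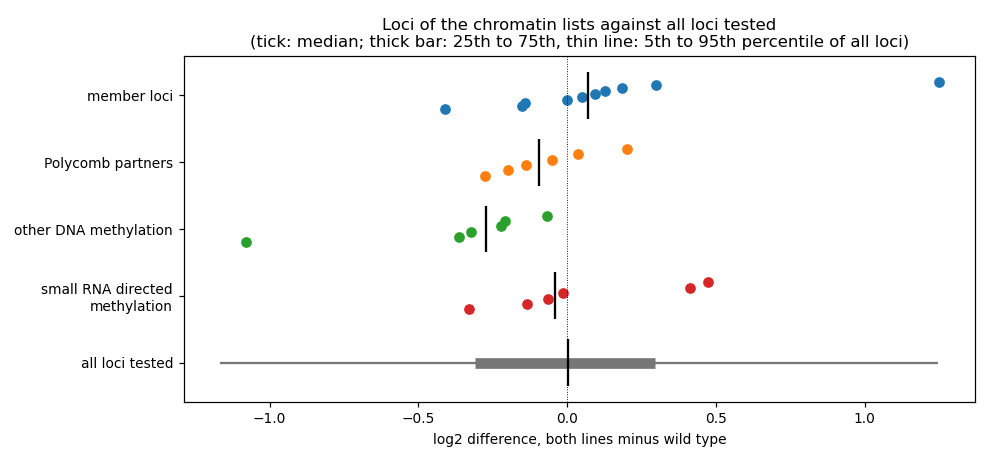
Points are fitted log2 differences between both lines and wild type for the tested loci of 4 lists, with a tick at each median. The bar at the bottom gives the spread of all loci, whose 5th and 95th percentiles are -1.17 and 1.25. All 6 points of the other DNA methylation loci lie below 0, where 50.3% of all loci lie above 0. MET1a is the rightmost of the member points.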

How the data were processed

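The signals come from 1-colour Agilent arrays of design 15241, read by Feature Extraction 10.7.3.1. Per the file headers, spot signals are deposited as linear intensity after background subtraction and detrending. Other deposited columns are flags of 0 or 1. The authors' table of values, for which the sources used here give no method, is in log2 units with the same distribution in all 6 columns (median 10.4).

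Of 45151 spots, 1417 controls were left out, as were outlier spots (0.0983% to 0.183% per array) and 59 control probes of the design. Each array's 75th percentile was subtracted on the log2 scale, and spots of 1 probe were averaged. The filter required a probe to be flagged well above background, for a share of 0.5 or more of its spots, on both arrays of some group, and 32419 of 42418 probes passed. The brightest kept probe stood for a locus, and 22250 loci and other probes with complete values were tested. All 6 arrays entered 1 fit in limma 3.58.1 (R 4.3.3) with a mean per group, 3 residual and 2.36 prior degrees of freedom. The code was tested on simulated data. Figures used matplotlib 3.10.9. No spot was saturated, and precision is limited by the number of arrays.

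All 10 members are named, and other loci only from set lists where they are the closest partner or relative of a member or are set beside one. Os03g0722400 and Os03g0226800 were listed as such relatives from general knowledge. Os06g0133000, Os02g0252400 and Os07g0182000, of the endosperm list, are set beside FIE1 and were picked after their values were seen. Member names come from the list that defined the members. The reference gene table (assembly ASM3414082v1) holds 0 of the 10 locus IDs, though it names 6 of the 10 genes on the chromosome that the ID carries. The members and lists were chosen with earlier results of these data known. Alternatives covered background correction, normalization, the authors' table, the filter, the choice of probe, the variance model, blocks, fits of only the groups compared, a looser threshold and each array left out. Normexp ran on median spot signals, the mean not being in the columns.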

Additional observations from a re-analysis of the deposited data

How the results depend on the processing

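The count of members called was 0 in every comparison and under every alternative that gave a value. With each array left out in turn it was likewise 0 to 0. With a replicate block, in which replicate number entered as a term, it was 0, and MET1a had 1.25 (limma adjusted p = 0.471). The replicate numbers share nothing in the labels, and the deviations of equally numbered arrays correlated at 0.065, 0.025 and 0.079 between the groups. Over all loci the count called for both lines was 32. It was 1 with the block, 4 with no filter, 4 with detection required on every array, and 0 to 219 with an array left out. For line 14 it was 9, with 1 under no filter, 0 with the block, 0 with any array left out, 30 after quantile normalization and 24 after normexp together with quantile normalization. With slide as a term only line 2 against wild type can be estimated, on the same arrays, and it gave 0. The smallest adjusted p of a member over all alternatives was 0.0884. Against wild type MET1a kept its sign under every alternative run, from 0.76 to 1.74 for both lines, as did EMF2b, from -0.49 to -0.32, but EMF2b changed sign once in line 14 against line 2. Of 656 recomputed differences 63 changed sign, none of them called in any fit, and the cause was not tested. After quantile normalization CLF was -0.026 for both lines, and FIE1 -0.047 in line 14 and -0.023 in line 14 against line 2. In the authors' table these were -0.029, -0.046 and -0.023. Median scaling gave FIE1 0.077 for both lines and 0.038 in line 2, and in line 14 iEZ1 0.020 and CMT3a 0.0096. Normexp together with quantile normalization gave, in line 14, EMF2a -0.0020, FIE1 -0.11 and CMT3a 0.020, and against line 2 iEZ1 -0.036, EMF2a -0.079 and FIE1 -0.059. By single probes, iEZ1 reached 0.070 in line 14. EMF2a reached -0.87 against line 2 on the dim probe kept only through line 2, and the mean of its kept probes, which includes that probe, gave -0.18. With each array left out, differences of both lines ran from -0.34 to 0.053 for iEZ1, -0.50 to 0.69 for EMF2a, -0.26 to 0.86 for MET1b, -0.32 to 0.68 for DDM1a, -0.50 to 0.75 for CMT3a, -0.22 to 0.22 for FIE1 and -0.20 to 0.30 for CLF. In line 2 they ran from -0.53 to 0.67 for EMF2a, -0.41 to 0.71 for MET1b, -0.23 to 0.77 for DDM1a, -0.27 to 0.98 for CMT3a, -0.23 to 0.21 for FIE1, -0.59 to 0.19 for iEZ1 and -0.70 to 0.28 for CLF. In line 14 they ran from -0.33 to 0.16 for iEZ1, -0.48 to 0.71 for EMF2a, -0.12 to 1.00 for MET1b, -0.21 to 0.22 for FIE1, -0.46 to 0.65 for DDM1a, -0.051 to 0.17 for DRM2 and -0.72 to 0.53 for CMT3a. Against line 2 they ran from -0.28 to 0.50 for iEZ1, -0.12 to 0.15 for FIE1, -0.73 to 0.38 for DDM1a, -0.068 to 0.17 for EMF2a, -0.0097 to 0.59 for MET1b and -0.27 to 0.069 for EMF2b. Such fits leave 1 group with a lone array that is assumed to vary like the others.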
